A study of Homo sapiens with 3 samples.

Results

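The Iroquois (IRX) homeobox genes and FTO, the gene next to IRX3, were examined in ALL-SIL cells, a human line established from T-ALL (acute lymphoblastic leukaemia of the T cell lineage). The genes described were IRX3, IRX5, IRX6 and FTO on chromosome 16 and IRX1, IRX2 and IRX4 on chromosome 5, which makes 7 of 20037 protein-coding genes. Each gene was taken as its RefSeq span in GRCh38 with 200 kb added on each side, called its window below. The windows held 98 of the 62087 called H3K4me1 peaks, 87 of them on chromosome 16 and 11 on chromosome 5. They held 5 of the 11100 called H3K4me3 peaks, 4 on chromosome 16 and 1 on chromosome 5.

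The study made an H3K4me1 ChIP library, an H3K4me3 ChIP library and 1 input DNA library from ALL-SIL cells, each a single library, and both peak lists were called against that input. H3K4me3 is a histone mark of active promoters, and H3K4me1 marks enhancers and the edges of promoters. The H3K4me1 library had 34813455 filtered tags, the H3K4me3 library 30823016 and the input 18859011. There were no replicates, so values carry no replicate error and no difference was tested. The genes were chosen by name and position, with their H3K4me3 and H3K4me1 peaks in these lists already known, so the values below are a description. As a check of the label, H3K4me3 lay within 1 kb of an end of 7 of 11 T cell markers and inside 10 of 11, with CD2 as the exception, where 49.4% of all protein-coding genes had it at an end and 10424 of 20037 inside. It lay at an end of 0 of 5 B cell, 0 of 5 myeloid, 0 of 5 erythroid and 1 of 5 fibroblast markers (PDGFRB). Inside those genes it was found at PAX5, EPOR and PDGFRB. H3K4me1 lay at an end of 9 of 11 T cell, 3 of 5 B cell, 1 of 5 myeloid, 1 of 5 erythroid and 3 of 5 fibroblast markers, beside 42.6% of all protein-coding genes.

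IRX genes encode homeodomain transcription factors of the TALE class that pattern the embryo, among other places in the nervous system, heart and limbs. The 6 human genes form 2 clusters of 3 that arose by duplication, so that IRX1 and IRX3, IRX2 and IRX5, and IRX4 and IRX6 are the closest relatives across the clusters. FTO encodes an RNA demethylase, and its introns are known to hold long-range enhancers of IRX3 and IRX5 in other tissues, within a region tied to obesity. IRX3 is known to be switched on in a share of acute leukaemias.

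Promoter sequences are shown for the genes of both clusters that have an entry, so that their CG content can be set beside their marks. The RefSeq promoter table (GRCh38.p14, 250 bases before to 50 after each start) matched 4 of the 7 genes, FTO, IRX1, IRX2 and IRX4. It also held CRNDE, the long noncoding RNA gene beside IRX5. Capitals mark each CG, the dinucleotide of CpG islands, which reads the same on both strands. The FTO promoter is chr16:53703906-53704205 on the + strand and the CRNDE promoter chr16:54928837-54929136 on the - strand, and both lay wholly inside H3K4me3 peaks. The IRX1 promoter is chr5:3595582-3595881 on the + strand, the IRX2 promoter chr5:2751628-2751927 on the - strand and the outermost of the 3 IRX4 promoters chr5:1887130-1887429 on the - strand, and these held no peak of either mark.
FTO: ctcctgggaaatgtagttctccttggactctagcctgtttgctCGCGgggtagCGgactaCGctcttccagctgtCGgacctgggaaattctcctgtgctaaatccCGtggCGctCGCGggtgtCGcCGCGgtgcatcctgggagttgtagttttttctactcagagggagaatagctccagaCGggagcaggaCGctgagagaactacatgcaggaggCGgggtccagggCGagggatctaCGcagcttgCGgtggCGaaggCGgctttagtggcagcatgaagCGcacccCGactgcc
CRNDE: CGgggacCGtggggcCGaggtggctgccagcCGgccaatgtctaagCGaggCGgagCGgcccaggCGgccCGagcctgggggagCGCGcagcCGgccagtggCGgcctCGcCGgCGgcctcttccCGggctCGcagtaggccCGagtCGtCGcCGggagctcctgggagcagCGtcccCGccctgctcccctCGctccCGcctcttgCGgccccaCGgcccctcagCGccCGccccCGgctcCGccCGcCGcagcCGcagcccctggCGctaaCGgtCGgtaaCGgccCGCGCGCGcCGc
IRX1: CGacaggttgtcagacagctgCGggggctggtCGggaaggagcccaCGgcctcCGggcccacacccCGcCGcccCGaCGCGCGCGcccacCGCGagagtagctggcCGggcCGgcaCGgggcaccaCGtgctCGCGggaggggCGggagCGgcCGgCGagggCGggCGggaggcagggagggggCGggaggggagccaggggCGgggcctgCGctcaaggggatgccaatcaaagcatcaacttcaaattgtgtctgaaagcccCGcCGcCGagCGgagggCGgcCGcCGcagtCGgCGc
IRX2: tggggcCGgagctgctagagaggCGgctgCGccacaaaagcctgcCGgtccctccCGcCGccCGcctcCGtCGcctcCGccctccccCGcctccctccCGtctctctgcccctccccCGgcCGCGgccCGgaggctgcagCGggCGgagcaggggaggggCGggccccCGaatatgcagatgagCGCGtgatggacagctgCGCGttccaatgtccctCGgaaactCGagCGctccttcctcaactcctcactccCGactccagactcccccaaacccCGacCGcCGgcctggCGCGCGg
IRX4: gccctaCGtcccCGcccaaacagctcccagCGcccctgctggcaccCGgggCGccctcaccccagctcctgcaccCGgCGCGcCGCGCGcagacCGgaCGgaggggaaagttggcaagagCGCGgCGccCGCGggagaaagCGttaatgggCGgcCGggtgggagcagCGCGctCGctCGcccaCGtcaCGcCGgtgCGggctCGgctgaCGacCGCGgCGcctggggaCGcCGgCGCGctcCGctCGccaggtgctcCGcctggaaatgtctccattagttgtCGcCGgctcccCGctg

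The unmarked promoters of chromosome 5 were rich in CG. The IRX1 promoter held 38 CG and the IRX2 promoter 34, against a median of 21 over the 22199 protein-coding promoters of the table. The 3 IRX4 promoters held 36, 47 and 44 CG. The marked FTO promoter held 22 CG and the marked CRNDE promoter 44. Among the 4455 protein-coding promoters with at least as many CG as IRX2, 69.0% had H3K4me3 within 1 kb of the start. The starts of IRX1, IRX2 and IRX4 were 1018898 bp, 949446 bp and at least 80694 bp from the nearest H3K4me3 peak. The CTD-2194D22.4 and IRX2-DT promoters, which face away from IRX4 and IRX2, held 51 and 34 CG and had no H3K4me3 at the start either.

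**Figure D1:**
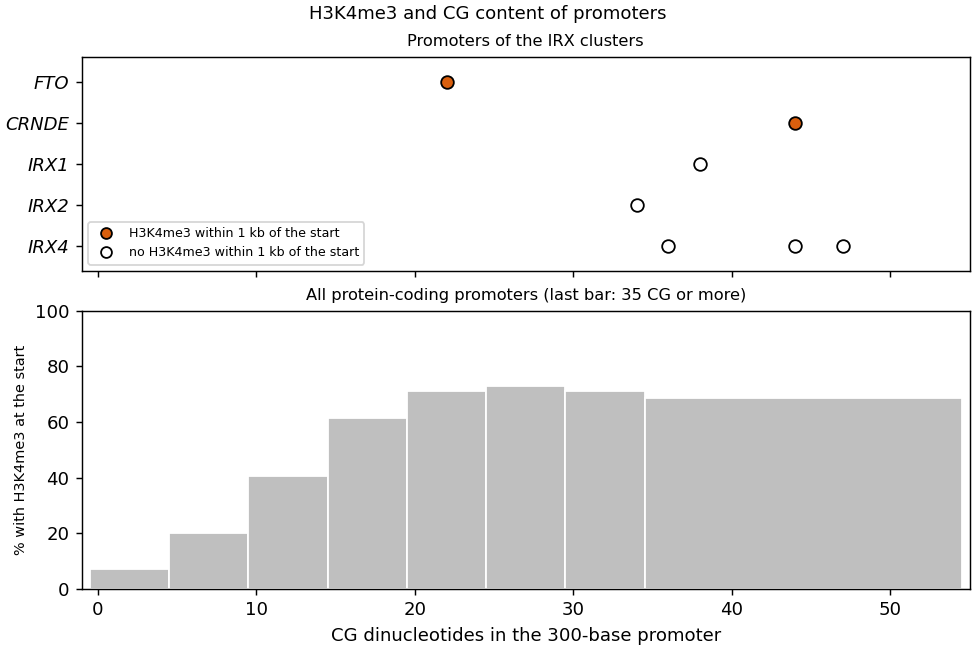
The upper panel places each promoter by its number of CG in 300 bases (IRX4 has 3), filled where H3K4me3 lay within 1 kb of the start and open where it did not. The lower panel gives, for all protein-coding promoters in bins of CG number, the percentage with H3K4me3 at the start, which is 7.1% for 0 to 4 CG and 68.8% for 35 or more. The 5 open points of IRX1, IRX2 and IRX4 lie between 34 and 47 CG. Of the filled points FTO lies to their left at 22 and CRNDE among them at 44.

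IRX3, IRX5 and FTO had H3K4me3 within 1 kb of an end and IRX6, IRX1, IRX2 and IRX4 did not. That is 3 of 7 genes, and 49.4% of all protein-coding genes had it. The same 3 genes had H3K4me1 within 1 kb of an end, beside 42.6% of all protein-coding genes. Both shares are near those of all genes. The division falls between and within the clusters: 3 of 4 genes on chromosome 16 and 0 of 3 on chromosome 5. IRX3 had H3K4me3 at its upper end and H3K4me1 at its lower end, and IRX5 had the reverse. Only FTO had both marks within 1 kb of the same end, its start. Of the relatives, IRX3 was marked and IRX1 was not, IRX5 was marked and IRX2 was not, and neither IRX6 nor IRX4 was. The 3 genes with H3K4me3 kept it when H3K4me3 peaks under a −log10 q of 10 were left out. H3K4me1 at an end was lost at all 3 when H3K4me1 peaks under a −log10 q of 5 were left out. It was found at IRX5 alone with as many H3K4me1 as H3K4me3 peaks. The lists themselves differ, with a median −log10 q of 2.27 for H3K4me1 and 8.97 for H3K4me3. Of all H3K4me1 peaks 83.0% had a −log10 q under 4.97. The shares of all genes that keep H3K4me3 or H3K4me1 at an end under these limits were not computed.

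At IRX3 the H3K4me3 peak lay on chromosome 16 from 54284523 to 54287582 and covered the upper end of the gene, which spans 54283304 to 54286787. It was 3060 bp long, longer than 93.2% of the H3K4me3 list, with a fold of 6.24 over the caller's local background, higher than 77.8% of the list. Folds and −log10 q are the authors' caller's own values for each peak and are compared only within 1 list. H3K4me1 covered 0 bp of this peak and 0 bp of the IRX3 span. An H3K4me1 peak of 6101 bp (54276917 to 54283017, fold 2.46) ended 287 bp below the lower end of IRX3. On the other side the next H3K4me1 peak began 3976 bp beyond the H3K4me3 peak, with 1673 bp and a fold of 1.87.

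At IRX5 a single H3K4me3 peak of 5977 bp, from 54926876 to 54932852, covered the lower end of IRX5 (54930865 to 54934485) and the start of CRNDE at 54928886. CRNDE reads away from IRX5 and lies 1.98 kb from it. The peak was longer than 99.4% of the H3K4me3 list, and its fold of 5.20 was higher than 62.8%. Within 5 kb of its ends IRX5 had 5977 bp of H3K4me3, more than 99.6% of protein-coding genes, while IRX3 had 3060 bp, more than 92.9%, and FTO 1353 bp, more than 64.5%. An H3K4me1 peak of 3065 bp (54932449 to 54935513, fold 3.4) overlapped the upper edge of the H3K4me3 peak by 404 bp and covered 56.3% of the IRX5 span. Below, 3 H3K4me1 peaks lay inside CRNDE, the nearest 1165 bp from the H3K4me3 peak. Reads over this peak cannot be divided between IRX5 and CRNDE.

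At FTO the H3K4me3 peak of 1353 bp (53703451 to 53704803) had a fold of 6.47, higher than 80.5% of the list. It lay across the start of FTO and that of RPGRIP1L, a gene of the ciliary transition zone that reads the other way from 104 bp below, so it too is shared. H3K4me1 peaks sat on both sides, one overlapping the lower edge (868 bp, fold 3.10) and one 502 bp above the upper edge (795 bp, fold 2.69). The midpoints of the IRX3, IRX5 and FTO H3K4me3 peaks were all outside H3K4me1. The share of all H3K4me3 peaks with a midpoint outside H3K4me1 was not computed. Of the 5 H3K4me3 peaks in all windows 4 overlapped H3K4me1 by at least 1 bp (exact 95% interval of the share 28.4% to 99.5%, counting error only). Over the whole list 46.8% did. An interval from 5 peaks, fixed by position in 1 library, is too wide to tell these shares apart.

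**Figure D2:**
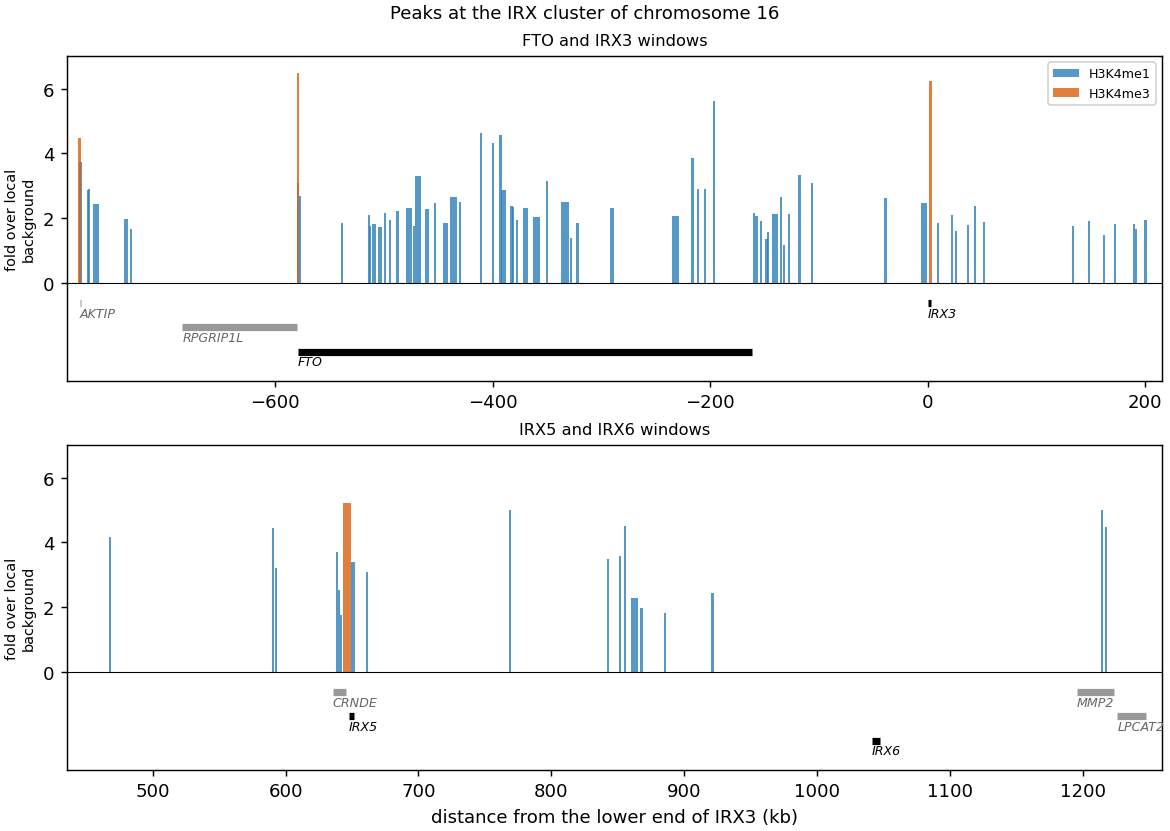
Called peaks in the windows of FTO and IRX3 (upper panel) and of IRX5 and IRX6 (lower panel), drawn to scale against distance in kb from the lower end of IRX3. Bar height is the caller's fold over local background, blue for H3K4me1 and orange for H3K4me3. Black lines are the 4 genes described and grey lines their neighbours, and 292 kb around IRX6 holds no bar.

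FTO carried most of the H3K4me1 of the chromosome 16 cluster. All 7 windows held an H3K4me1 peak, as did those of 92.8% of protein-coding genes, and 4 of 7 held an H3K4me3 peak, beside 87.5%. Its window of 818.0 kb held 60 H3K4me1 peaks covering 128.0 kb, or 15.7 kb per 100 kb, more than in 88.4% of protein-coding genes. The IRX3 window had 27 peaks and 9.16 kb per 100 kb, more than in 71.3% of genes. The IRX6 window had 9 peaks and 3.33 kb per 100 kb, and the IRX5 window 11 peaks and 2.5 kb per 100 kb, both under the median of 4.92 kb over all genes. Neighbouring windows overlap, so peaks between FTO and IRX3 are in both counts. The median of the 7 genes was 3.33 kb of H3K4me1 and 0.598 kb of H3K4me3 per 100 kb, against 4.92 and 1.16 kb over all protein-coding genes.

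Inside the FTO span of 418.0 kb lay 37 H3K4me1 peaks covering 87214 bp, 20.9% of the gene. Among the 3356 protein-coding genes of at least 100 kb the median was 1.44% and 92.5% were below FTO. Among the 1514 of them with H3K4me3 at an end the median was 4.0% and 87.6% were below FTO. The 37 peaks ran from 274 to 6737 bp with a median of 1062 bp, and 16 were 2000 bp or longer. Their folds ran from 1.39 to 5.63 with a median of 2.33, next to 2.37 over the whole H3K4me1 list.

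The mark was unevenly spread along FTO. Of 10 equal bins of 41.8 kb, counted from the start, bin 1 with the promoter was covered to 3.84%. Coverage was 23.1%, 46.0%, 30.2%, 28.6% and 41.3% in bins 2, 3, 4, 5 and 6. It was 16.3% in bin 7, 0% in bin 8, 18.5% in bin 9 and 0.778% in bin 10. Bins 2 to 6 thus held the densest H3K4me1, and exons and introns were not placed. The 3 peaks of highest fold in FTO were 1 of 325 bp in bin 10 (54086003 to 54086327, fold 5.63, above 97.6% of the list) and, in bin 5, 1 of 1467 bp at 53871826 (fold 4.63) and 1 of 565 bp at 53889582 (fold 4.56).

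**Figure D3:**
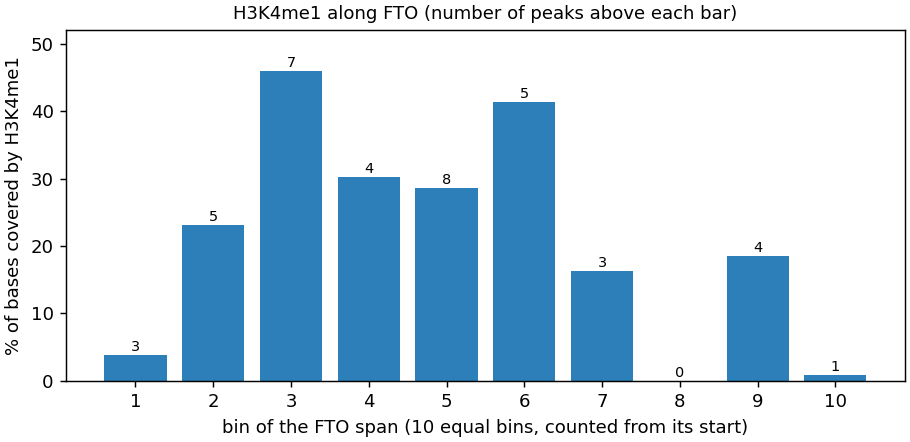
The percentage of bases covered by H3K4me1 in each of 10 equal bins of FTO, counted from its start, with the number of peaks touching that bin above the bar (a peak across a border counts in both). Bin 3 reaches 46.0% and bin 8 is at 0%.

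Between the genes of chromosome 16 the H3K4me1 was densest next to FTO. The 161 kb between FTO and IRX3 held 13 peaks and 15.8 kb of H3K4me1 per 100 kb. The 644 kb between IRX3 and IRX5 held 23 peaks and 3.02 kb per 100 kb, and the 390 kb between IRX5 and IRX6 held 10 peaks and 3.65 kb per 100 kb. Peaks nearest to IRX3 were weak, with a median fold of 1.87 over 15 peaks and a highest fold of 2.64. Those nearest to IRX5 had a median fold of 3.45 over 10 peaks and a highest of 5.01, at a peak of 434 bp that lay 117 kb above the gene (55051650 to 55052083).

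IRX6 (55324203 to 55330756) was without either mark. Its nearest H3K4me1 peak was 120 kb away and its nearest H3K4me3 peak, the one at IRX5, 391 kb away. No H3K4me1 peak was called in the 292 kb from 55204581 to 55496687, in which IRX6 lies. Of the 9 peaks of its window, 7 lay below the gene toward IRX5, and the other 2, with folds of 5.00 and 4.48, lay inside MMP2, the gene of a matrix metalloproteinase. All 9 were over 100 kb from IRX6.

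On chromosome 5 the IRX1 and IRX2 windows held little of either mark, while the IRX4 window was near the median of all genes for H3K4me1. Over the 3 windows H3K4me1 covered 1.78 kb per 100 kb. IRX4 (1877413 to 1887179), a gene of the heart ventricles, had 6 H3K4me1 peaks in its window, none nearer than 74.0 kb, with 4.55 kb per 100 kb, more than in 47.9% of genes. Of these, 3 lay below IRX4 beside NDUFS6 and MRPL36, the longest of 12670 bp (1781791 to 1794460, fold 3.33), longer than 99.0% of the H3K4me1 list. The other 3 lay 74.4, 88.1 and 110 kb above IRX4, with folds of 4.07, 4.65 and 4.55. The 1 H3K4me3 peak of this cluster, 3254 bp with a fold of 3.76 (1798978 to 1802231), covered the starts of NDUFS6, a subunit of respiratory complex I, and of MRPL36, a mitochondrial ribosomal protein, and lay 75.2 kb from IRX4.

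IRX2 (2735635 to 2751677) had 1 H3K4me1 peak in its window, of 569 bp at a fold of 3.56, which lay 197 kb below the gene. The 413 kb from there to the upper edge of the window held no peak. IRX1 (3595832 to 3601403) had 4, with folds of 3.6 and 3.34 below the gene and of 1.87 and 1.72 above it, and the nearest was 60.6 kb away. H3K4me1 covered 0.14 kb per 100 kb of the IRX2 window and 0.67 kb of the IRX1 window, and 8.96% and 16.9% of protein-coding genes had less. Neither window held H3K4me3, as for 12.5% of protein-coding genes. The 848 kb between IRX4 and IRX2 held 4 H3K4me1 peaks and the 844 kb between IRX2 and IRX1 held 3.

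**Figure D4:**
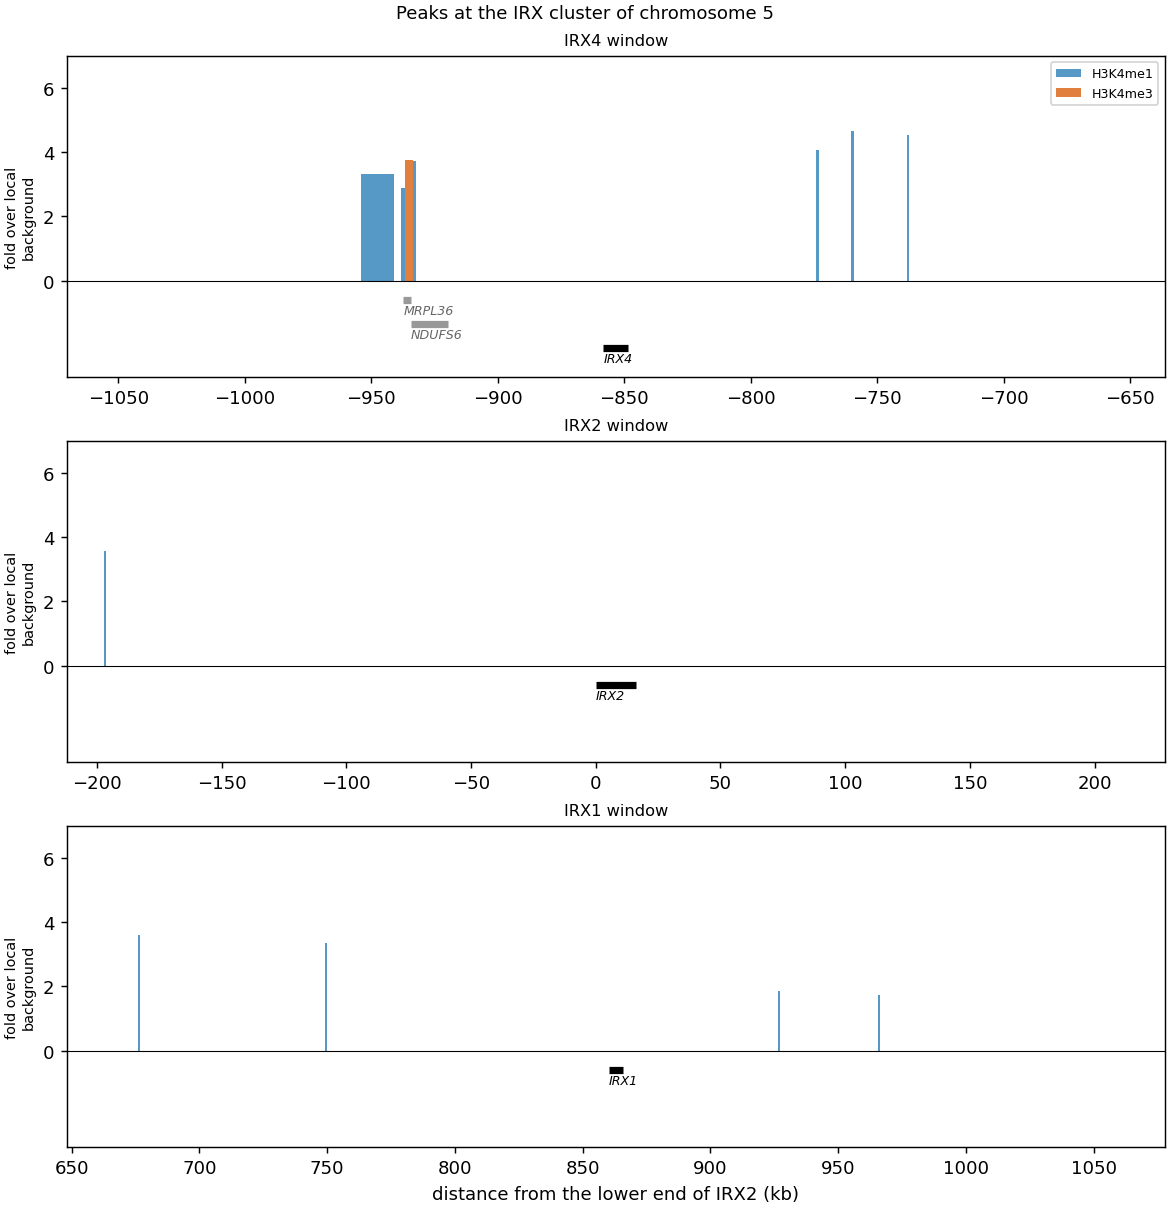
Called peaks in the windows of IRX4, IRX2 and IRX1, against distance in kb from the lower end of IRX2, with bar height as the caller's fold (blue H3K4me1, orange H3K4me3). Black lines are the IRX genes and grey lines NDUFS6 and MRPL36. Only the IRX4 window holds an orange bar, and the IRX2 window holds 1 bar in all.

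**Figure D5:**
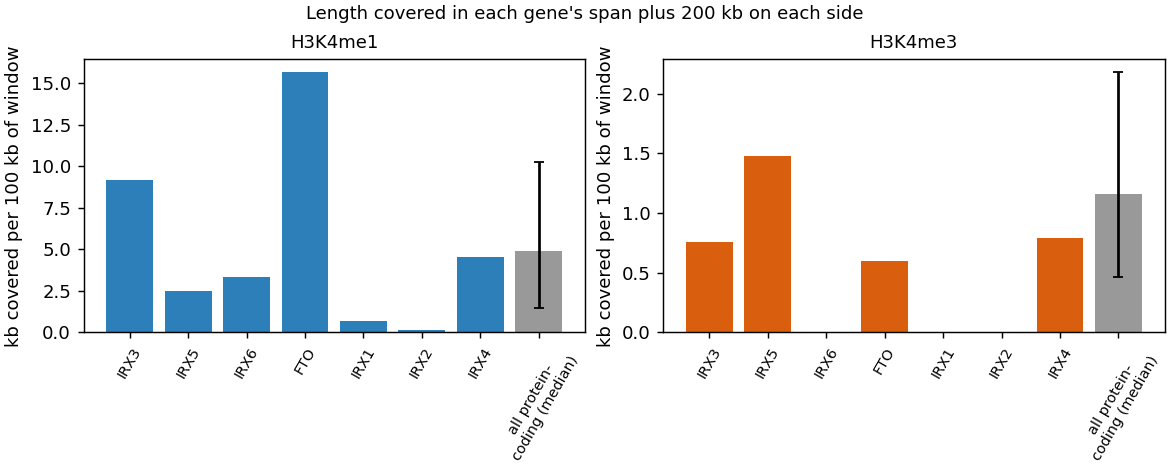
Length covered by H3K4me1 (left) and H3K4me3 (right), in kb per 100 kb of each gene's window, for the 7 genes, with the median of all 20037 protein-coding genes in grey and its bar from the lower to the upper quartile. FTO at 15.7 kb stands above the upper quartile of 10.2 kb for H3K4me1, and IRX1 and IRX2 stand below the lower quartile of 1.44 kb.

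The local background, estimated at called peaks only, differed between the clusters. Pileup divided by fold is a rough estimate of the background and not the caller's own value. Its median was 2.75 at H3K4me1 peaks of the chromosome 16 windows and 2.19 at those of chromosome 5, against 2.48 over the list. At H3K4me3 peaks the order was the other way, with 2.93 over the 4 peaks of chromosome 16 and 4.12 at the 1 peak of chromosome 5, against 2.79 over the list. The part of the background in the number of peaks called was not tested. At the outer edge below FTO, the H3K4me3 peak of AKTIP (fold 4.48) reached 477 bp into the window, and an H3K4me1 peak of fold 3.41 lay 1.76 kb outside, next to one of fold 3.73 inside. Above IRX6 the last H3K4me1 peak inside had a fold of 4.48 and the first outside, 172 kb beyond the edge, 3.91. Outside the chromosome 5 windows the nearest H3K4me1 peaks were 22.8 kb below that of IRX4 (fold 6.38) and 25.9 kb above that of IRX1 (fold 2.19). The first inside had folds of 3.33 and 1.72.

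Other genes of the windows carried the marks in part. Besides the 7, the chromosome 16 windows touched 4 protein-coding genes. AKTIP, which encodes an AKT-interacting protein, and RPGRIP1L had both marks at an end, and MMP2 and LPCAT2, a phospholipid acyltransferase gene, had neither. The chromosome 5 windows touched NDUFS6 and MRPL36, with both marks, and LOC124901163 and LOC124901165, with neither. Of 18 lncRNA genes in the chromosome 16 windows 2 had H3K4me3 at an end, CRNDE and LOC124903690, where 14.4% of all lncRNA genes had it. H3K4me1 was at an end of 7 of the 18, beside 23.2% of all lncRNA genes: LOC124903690, LOC105371268, LOC105371269, LOC124903691, LOC105371271, LINC02169 and LOC124903692. Of 17 lncRNA genes in the chromosome 5 windows 0 had H3K4me3 and 1 had H3K4me1, LOC101929003.

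H3K4me3 lay at an end of 2 of 6 IRX genes, beside 6 of 11 other TALE homeobox genes and 49.4% of all protein-coding genes. The other TALE genes include partners of HOX proteins (MEIS, PBX) and the TGIF repressors. MEIS2 had 3.56 kb within 5 kb of its ends, PBX2 3.13 kb, TGIF2 2.66 kb, PBX3 1.58 kb, PKNOX1 0.990 kb and PBX4 0.241 kb. IRX5 had more near its ends than any of them, with 5.98 kb, and IRX3, with 3.06 kb, came below MEIS2 and PBX2. The IRX5 length is that of the peak shared with CRNDE. Inside its span IRX5 had 1988 bp, less than MEIS2 with 2826 bp, TGIF2 with 2142 bp and TGIF1. TGIF1 had none near its ends but 6277 bp inside the gene, and MEIS1, MEIS3, PKNOX2 and MKX had none in the span. H3K4me1 lay at an end of 5 of the 11, PBX2, PBX4, PKNOX1, TGIF1 and TGIF2, where 42.6% of all protein-coding genes had it. The median number of H3K4me1 peaks in the window was 7.5 for the 6 IRX genes, 15 for the 11 and 16 over all protein-coding genes.

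Likeness of pattern was measured over 4 values, the H3K4me1 and H3K4me3 lengths per 100 kb of window and within 5 kb of the ends, as the distance between ranks over all protein-coding genes. The genes closest to IRX5 were GSKIP, PRP4K, PPAT, HNRNPK and LPXN, at rank distances of 0.0511 to 0.0632. They had 3623 to 6719 bp of H3K4me3 near their ends, where IRX5 had 5977 bp. Those closest to IRX4, at distances of 0.0068 to 0.0123, were NDRG4, MTM1, CARMIL1, GPR101 and MYH14, all with 0 bp of either mark near their ends. All these genes were picked on the values given, so the likeness follows from the choice. Over all protein-coding genes 38.2% had 0 bp of H3K4me1 and 46.4% had 0 bp of H3K4me3 near their ends. IRX5 and IRX4 were taken as the genes with the most H3K4me3 in their windows in each cluster. For IRX4 this is the peak at NDUFS6 and MRPL36, 75.2 kb away.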

How the data were processed

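The authors' caller was MACS2 2.1.0.20150731, run for broad regions with each ChIP library against the same input, with a q limit of 0.1 for broad and 0.05 for strong regions and 1 tag kept per position, per the file headers. The build was GRCh38, per the submitters' processing notes. Alignments came from folders named for STAR, per the file headers and the version is not given in the sources used here. Of the peak values, the deposited pileup is a coverage signal, the deposited fold is a ratio over the local background, and the deposited −log10 q is a mean over each region. The caller scaled the larger library to the smaller, per the file headers.

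From the peak tables, peaks in gene windows, covered lengths and distances were computed with Python 3.11.15, pandas 2.3.3 and numpy 2.4.6, and intervals with scipy 1.17.1. A peak counted in a window from 1 bp of overlap and once per cluster. Gene spans came from RefSeq GRCh38.p14, with no exons and a strand only through the promoter table. A mark was at an end within 1 kb of either end of a span. Counting and covering were checked on simulated intervals. The genes and lists were chosen with earlier results of these data known. Named were the 7 genes, all protein-coding genes in the windows, lncRNA genes there with a mark at an end, the TALE list (1 gene of it is not reported here) and the 5 genes most alike, those within 1 Mb left out. Depth can limit which weak H3K4me1 peaks are called, which was not tested. Alternatives were stricter q limits, other flanks, end windows and overlap rules.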

Additional observations from a re-analysis of the deposited data

How the results depend on the processing

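Of 42 alternative values for 7 counts, 23 stayed within 1.5 times of the count given and 19 did not. The H3K4me1 counts rested largely on weak peaks, as did the whole H3K4me1 list, where 83.0% had a −log10 q under 4.97. The median −log10 q was 2.35 in the chromosome 16 windows and 4.55 in those of chromosome 5, against 2.27 over the list. By this median the peaks of the windows were not weaker than the list. The limits were −log10 q of 5 and 10, and an H3K4me1 list cut to the size of the H3K4me3 list. In that order the chromosome 16 windows held 14, 0 and 17 H3K4me1 peaks and the chromosome 5 windows 3, 0 and 4. With these limits 0, 0 and 1 of the 7 genes had H3K4me1 at an end, and 1, 0 and 2 of the H3K4me3 peaks overlapped H3K4me1 (of 5, 3 and 5). The chromosome 5 windows held 7 H3K4me1 peaks with flanks of 100 kb and 0 with flanks of 50 kb. Their H3K4me3 peak was lost (0) at 50 kb and at a −log10 q of 10. With start sites alone, known for 4 of the 7 genes, 1 had H3K4me3 and 1 had H3K4me1, FTO in both cases. IRX3, IRX5 and IRX6 had no entry and were not counted there. The share of all genes marked by start sites alone was not computed. When 50% of the H3K4me3 peak had to be covered, 1 of 5 overlapped. The shares of all H3K4me3 peaks that overlap H3K4me1 under these limits and this rule were not computed. The fall in each case follows from fewer peaks, bases or genes being counted, or from a stricter overlap. No paired analysis was possible because each mark had 1 library. Leaving out a replicate was not possible for the same reason.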
